A study of Homo sapiens with 6 samples.

Results

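The genes described here are 44 regulators of alternative splicing: the heterogeneous nuclear ribonucleoproteins (hnRNPs), their relatives of the PCBP, PTBP, FET, MBNL, CELF, RBFOX, QKI, TIA, ELAVL and TRA2 families, and RBM5, RBM10, RBM39, KHSRP and MATR3. They were taken by symbol from a list of named genes. All 44 were matched among the 62111 gene rows, on 45 rows, since MATR3 has 2. RNA was sequenced from K562 cells, a human line from chronic myeloid leukaemia in blast crisis with erythroid features, in 3 libraries with wild-type SF3B1 (WT) and 3 with SF3B1-K700E. SF3B1 is a subunit of the U2 snRNP that helps recognise the branch point, and K700E is a recurrent substitution in myelodysplasia. The labels give no other treatment, and they do not say how the substitution was made, whether the K700E cells are a single clone, or whether replicates are separate cultures. The p-values therefore measure only the spread between these libraries, which may be technical.

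hnRNPs coat nascent transcripts and decide, with the SR proteins, which splice sites the spliceosome uses. Most silence exons when bound inside them, while binding in the flanking introns can act either way, and several also control RNA export, decay or translation. Many keep their own protein level constant by splicing their transcripts into forms that nonsense-mediated decay removes, so the total RNA of such a gene need not follow its protein. The K700E substitution acts on the choice of 3' splice site, a step at which hnRNPs also act. The comparison asked whether the transcripts of these regulators differ in level between the genotypes. Exon use was not measured, because each value sums all reads of a gene.

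The libraries held 104642332 to 136588117 recovered read ends, so counting error is small for the members tested, the thinnest of which had 4536 read ends in its lowest library. SF3B1 itself had a log2 difference of 0.22 (limma adjusted p 0.602), within the spread of its libraries. TPM are reads per length of gene, scaled to the same total in every library, and can be compared between genes. All 10 K562 markers examined were present in every library. Of 24 markers of other cell types, 6 exceeded 1 TPM in any library, led by LYZ (64.6 to 174 TPM), and KRT5 was at 0 throughout. WT replicate 3 lay between the other WT libraries for 75.9% of all genes and 36 of the 42 members tested. Results are therefore also given without it. The genotypes stand in separate deposited tables, so a difference between tables in processing or sequencing and the genotype cannot be told apart.

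**Figure D1:**
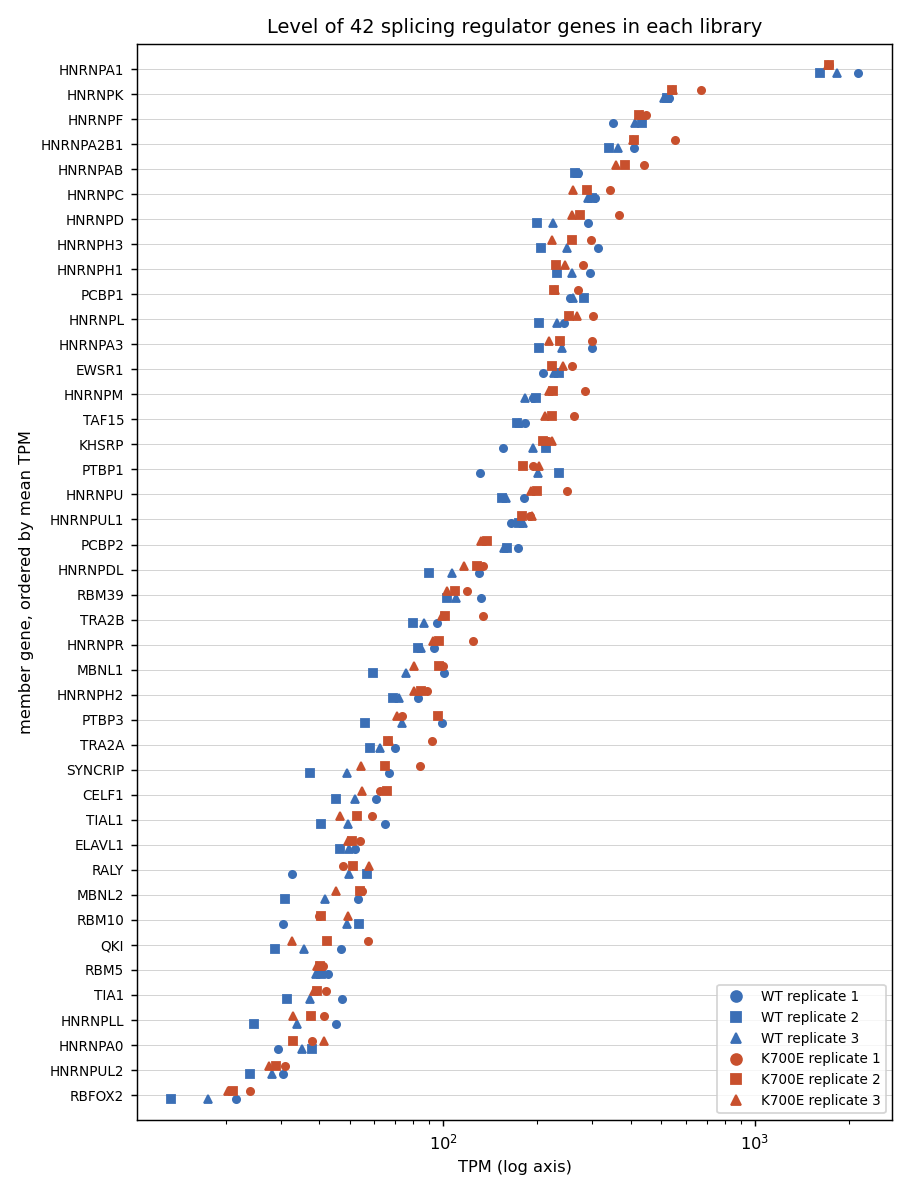
Levels of the 42 members with a mean of at least 1 TPM, on a log axis, with each point a library (WT in blue, K700E in red, replicate by symbol). HNRNPA1 stands alone at a mean of 1793 TPM, and the spread between replicates of a group is often as wide as the gap between the genotypes.

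These were abundant transcripts. The 42 tested members had a median level of 115 TPM, against 12.4 TPM over all 15493 genes tested, and all 42 lay above that median gene. Of the 42, 20 were among the 1000 most abundant genes. HNRNPA1, which binds UAG-containing silencers and shuttles between nucleus and cytoplasm, led at 1865 ± 263 TPM in the WT libraries and 1721 ± 5.54 TPM with K700E. It held 21.7% of the summed level of the members. HNRNPK, HNRNPF, HNRNPA2B1, HNRNPAB and HNRNPC followed, with means between 299 and 553 TPM over all libraries. RBFOX2, which binds GCAUG motifs in introns, was the least abundant member tested, at 17.5 ± 4.13 and 21.8 ± 1.89 TPM. Summed over all members the level was 8526, 7458 and 7854 TPM in WT replicates 1, 2 and 3, and 9325, 8225 and 8071 TPM with K700E replicates 1, 2 and 3. The sums overlapped between the genotypes. In bulk RNA, less transcript per cell and fewer cells with the transcript cannot be told apart.

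No member passed the test. At a limma adjusted p under 0.05, 0 of 42 members were called, where 214 of 15493 genes (1.38%) were, 178 of them higher (1.15%) and 36 lower (0.232%). At an unadjusted p under 0.05 limma gave 4 higher and 1 lower member, 11.9% of 42, against 16.5% of all genes (13% higher and 3.52% lower). A limma-voom fit to the recovered reads called 0 of 45 member rows as well, where 381 of 22158 genes were called. At an unadjusted p under 0.05 that fit gave 4 of the 45 rows, against 3904 of the 22158 genes. In 7 members (16.7%) every K700E library lay above every WT library, against 19.0% of all genes, and in 1 member (2.38%) every K700E library lay below, against 4.99%. These shares are near or under the background, so they are no result about the members. Without WT replicate 3 the counts were 8 and 1, against 21.0% and 5.46% of all genes, and 1 member had an unadjusted p under 0.05 against 9.59%. That count of 5 was 11 without WT replicate 1, when the share of all genes was 24.4%. It was 2 when WT replicate 2, K700E replicate 1 or K700E replicate 2 was left out, when the shares of all genes were 14.9%, 12.6% and 12.3%.

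The differences were small and, for most members, could not be told apart from that of the median gene. The median member had a log2 difference, K700E minus WT on log2(TPM + 1), of 0.15, and the median gene 0.13. Of the 42 members 34 had a positive difference with TPM as deposited, but 24 with TMM scaling and 22 with median-ratio scaling. The size of this majority therefore depends on the scaling. Of all 15493 genes 10729 were positive as deposited, 8109 with TMM scaling and 7722 with median-ratio scaling. Relative to the median gene 24 members were above and 18 below. The limma 95% intervals of the 42 differences all lay inside a doubling and a halving, with a median width of 0.36 to each side. Leaving out 1 library turned the sign in 14 of the 42 members: HNRNPA3, HNRNPC, HNRNPH1, HNRNPH3, HNRNPLL, HNRNPUL2, PTBP1, PTBP3, RALY, RBM5, RBM10, RBM39, TIA1 and TIAL1. The intervals reached farthest in SYNCRIP, up to 0.99, and PCBP2, down to -0.53. With GC correction, chosen after the data were seen, 1 member was called, PCBP2, while the calls over all genes became 263 higher and 219 lower.

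**Figure D2:**
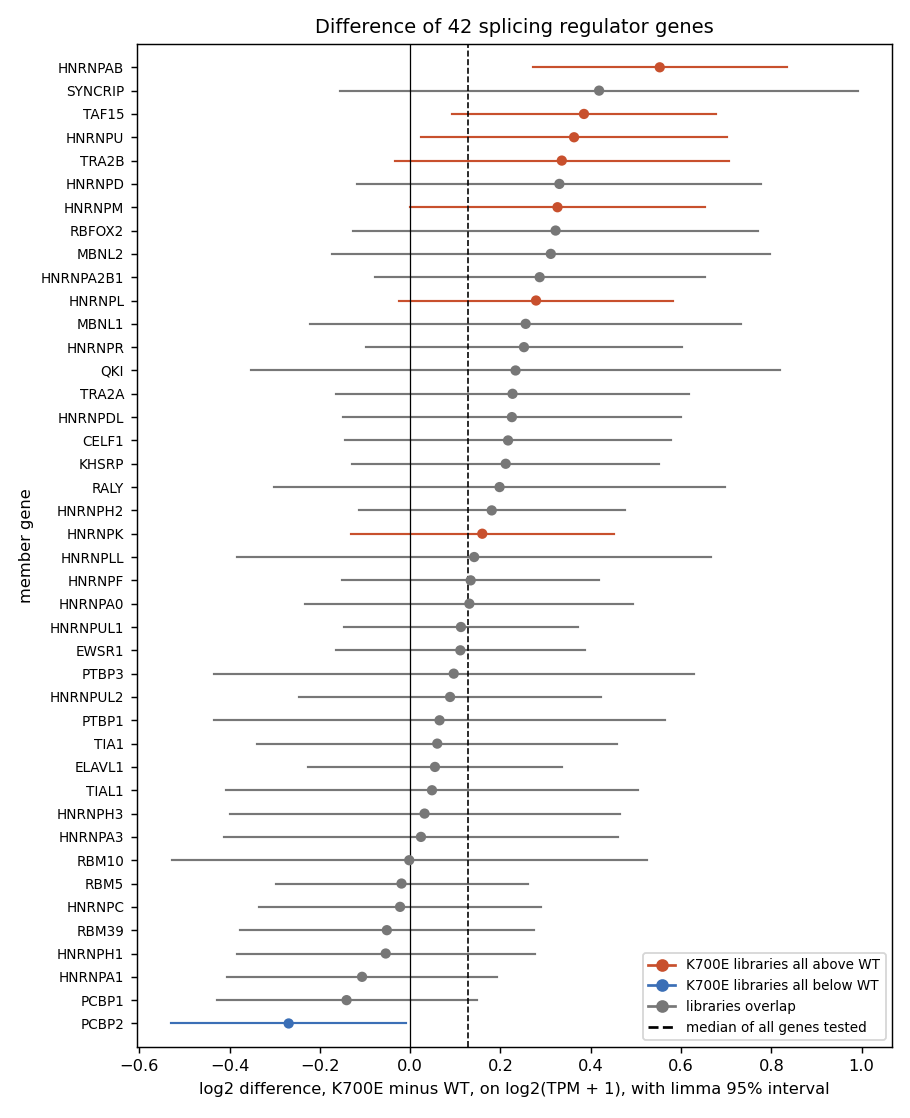
log2 difference of each tested member, K700E minus WT, with limma 95% intervals as bars. Of the 42 intervals 37 hold 0 and 40 hold the median of all genes (dashed line, 0.13); HNRNPAB at the top and PCBP2 at the bottom are the exceptions to the latter.

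The RefSeq table of promoters (build GRCh38.p14) held 37 of the 44 members. The 250 bases before the start had a median GC content of 66.0% and a median of 24 CpG dinucleotides, against 58.0% and 11 over 35116 promoters of the same length. Members have 1 window per symbol, while the 35116 were not reduced to 1 per gene or matched for GC content or level. The SP1 GC box (GGGCGG, either strand) was in 28 of 37 windows, 75.7%, against 42.6% of all, and the CCAAT box (CCAAT, either strand) in 17, 45.9% against 32.0%. The TATA box (TATAAA, either strand) was in 4, 10.8% against 10.7%. The ETS site CCGGAAGT was in 2 of 37, and the palindromic NRF1 site of 10 letters (GCGCA followed by its reverse complement) in 0, against 3.42% and 1.03% of all promoters. The CCAAT box can overlap its own reverse complement, and no overlap was removed. Below are 3 windows, those of the members with the largest positive and the most negative difference (HNRNPAB and PCBP2) and of HNRNPU, whose libraries also did not overlap. Capitals mark matches to the SP1, CCAAT and TATA boxes. The positions are chr5:178204283-178204532 (plus strand), chr12:53451852-53452101 (plus strand) and chr1:244864544-244864793 (minus strand).
HNRNPAB: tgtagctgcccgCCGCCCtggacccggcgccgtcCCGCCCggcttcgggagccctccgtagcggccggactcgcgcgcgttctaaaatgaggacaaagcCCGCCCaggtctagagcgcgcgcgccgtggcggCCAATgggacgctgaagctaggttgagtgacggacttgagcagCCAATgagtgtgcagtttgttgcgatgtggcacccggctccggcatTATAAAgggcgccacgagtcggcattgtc
PCBP2: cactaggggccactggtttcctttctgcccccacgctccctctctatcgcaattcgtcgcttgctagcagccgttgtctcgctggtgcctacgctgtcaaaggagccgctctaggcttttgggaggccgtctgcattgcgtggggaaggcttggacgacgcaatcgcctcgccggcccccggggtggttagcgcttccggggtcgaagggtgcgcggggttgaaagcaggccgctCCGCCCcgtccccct
HNRNPU: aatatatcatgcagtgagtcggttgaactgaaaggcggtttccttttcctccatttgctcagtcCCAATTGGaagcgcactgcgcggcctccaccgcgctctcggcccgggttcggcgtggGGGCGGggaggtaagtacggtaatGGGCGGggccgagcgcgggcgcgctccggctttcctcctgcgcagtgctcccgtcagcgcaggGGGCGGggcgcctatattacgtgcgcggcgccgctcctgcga
HNRNPAB holds 2 CCAAT boxes, 3 GC boxes and 1 TATA box. HNRNPU holds 3 GC boxes and 2 CCAAT matches, which overlap on opposite strands in 1 stretch, CCAATTGG. PCBP2 holds 1 GC box and no match to the other motifs. A match describes the letters only.

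HNRNPAB (ENSG00000197451, GRCh37 chromosome 5, 177631534 to 177638164, plus strand) came nearest to the threshold. It encodes an hnRNP of the A/B type that also binds CArG boxes in DNA. It stood at 269.6, 263 and 268 TPM in the WT libraries and at 439.9, 384 and 357 TPM with K700E. The WT libraries were close together and every K700E library lay well above them. The group means were 267 ± 3.19 and 394 ± 42.3 TPM (SD, n = 3 each), a ratio of 1.47. The log2 difference was 0.55 (SE 0.12, 95% interval 0.27 to 0.83), with a limma p of 0.00212 and an adjusted p of 0.0844. The adjusted p ran between 0.0909 (leaving out WT replicate 1) and 0.349 (leaving out WT replicate 3), while the difference stayed between 0.47 and 0.62. It was 0.43 with TMM scaling.

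In the other hnRNPs of the A/B and D groups the libraries of the genotypes overlapped. HNRNPA2B1 (ENSG00000122566, chromosome 7, 26212677 to 26240921, minus strand), the partner of HNRNPA1 in exon silencing and microRNA sorting, was at 408, 341 and 363 TPM in the WT libraries and 552, 409 and 405 TPM with K700E. K700E replicate 3 lay below WT replicate 1, and the limma adjusted p was 0.417. HNRNPA1 (ENSG00000135486, chromosome 12, 54673977 to 54680871, plus strand) was at 2143, 1619.9 and 1832 TPM in the WT libraries and 1724, 1723 and 1714 TPM with K700E, so that the K700E libraries all fell inside the WT range. Reads of HNRNPA1 could be shared with its processed pseudogenes. The table lists 74 rows of that name, and their summed level was 1.87% of the parent gene. HNRNPD, also called AUF1, which binds AU-rich elements and promotes decay, stood at 291, 200.3 and 225 TPM in the WT libraries and 366, 275 and 259.5 TPM with K700E (limma adjusted p 0.443). Its groups overlapped. HNRNPA3, HNRNPA0 and HNRNPDL had log2 differences of 0.02, 0.13 and 0.23, all with overlapping libraries.

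The proteins that read pyrimidine tracts next to 3' splice sites had overlapping libraries. HNRNPC binds uridine tracts and keeps U2AF2 from cryptic 3' splice sites. It was at 307, 301 and 292 TPM in the WT libraries and 344, 288 and 259.8 TPM with K700E. The K700E libraries lay on both sides of WT, and the log2 difference was -0.02 (95% interval -0.34 to 0.29). PTBP1, the polypyrimidine tract binding protein that represses many exons outside neurons, was at 131, 234 and 201 TPM in the WT libraries and 194, 180.3 and 203 TPM with K700E. Its WT libraries alone spanned the whole K700E range. PTBP3, its paralog in blood cells, stood at 99.2, 55.9 and 73.7 TPM in the WT libraries and 73.8, 95.7 and 70.9 TPM with K700E, the reverse order of PTBP1 within WT. RALY, a close relative of HNRNPC, had a log2 difference of 0.20 (95% interval -0.30 to 0.70), which was -0.03 without WT replicate 1. TIA1 and TIAL1, which bind uridine-rich sequence below weak 5' splice sites and aid U1 snRNP, had differences of 0.06 and 0.05.

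HNRNPL (ENSG00000104824, chromosome 19, 39327028 to 39342978, minus strand) binds CA-rich elements. It was at 244, 202 and 231 TPM in the WT libraries and at 301, 253 and 269 TPM with K700E, without overlap (log2 difference 0.28, SE 0.13, limma adjusted p 0.342). Of its exon bases 22.3% are shared with another listed gene on the same strand, which was at 0 in every library. The value of HNRNPL may therefore lack reads in the shared bases, which was not tested. HNRNPLL, known for CD45 exon skipping in lymphocytes, was at 45.2, 24.7 and 33.8 TPM in the WT libraries and 41.4, 37.5 and 32.9 TPM with K700E. Its groups overlapped.

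HNRNPM (ENSG00000099783, chromosome 19, 8509651 to 8553998, plus strand), which binds GU-rich sequence, stood at 194, 198 and 183 TPM in the WT libraries and at 286, 224 and 218 TPM with K700E. The lowest K700E library lay above the highest WT library (log2 difference 0.33, SE 0.14, limma adjusted p 0.302). HNRNPU (ENSG00000153187, chromosome 1, 245013599 to 245027862, minus strand), also known as scaffold attachment factor A, binds chromatin-associated RNA. It stood at 181, 154 and 159 TPM in the WT libraries and at 249, 199.8 and 190.4 TPM with K700E. These groups did not overlap (log2 difference 0.36, SE 0.15, limma adjusted p 0.272). The related HNRNPUL1 and HNRNPUL2 had differences of 0.11 and 0.09 with overlapping libraries. In HNRNPUL2, 45.9% of exon bases are shared with a read-through gene that was at 0 throughout. Its value may lack reads in those bases too, which was not tested.

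SYNCRIP, or hnRNP Q, had the second largest difference among the members, 0.42, and the interval with the highest upper bound. It was at 66.7, 37.3 and 48.9 TPM in the WT libraries and at 84.0, 64.9 and 54.3 TPM with K700E (limma adjusted p 0.450). WT replicate 1 exceeded 2 of the K700E libraries. The difference was 0.63 without WT replicate 1 (adjusted p 0.148), 0.22 without WT replicate 2 and 0.25 without K700E replicate 1. Its paralog HNRNPR had a difference of 0.25 (95% interval -0.10 to 0.60).

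Among the KH domain proteins, which bind C-rich RNA, PCBP2 was the only member whose K700E libraries all lay below WT. PCBP2 (ENSG00000197111, chromosome 12, 53845886 to 53874946, plus strand) stabilises C-rich messages and carries iron to ferritin. It stood at 174, 159 and 157 TPM in the WT libraries and at 135, 138 and 132 TPM with K700E, with group means of 163 ± 9.10 and 135 ± 3.04 TPM (SD, n = 3 each). The log2 difference was -0.27 (SE 0.11, 95% interval -0.53 to -0.01) with a limma adjusted p of 0.287, and leaving out 1 library gave 0.244 to 0.636. Relative to the median gene it was -0.40. With TMM scaling it was also -0.40 (adjusted p 0.140), and with GC correction -0.43 (limma adjusted p 0.0407). Of its exon bases 74.3% are shared with other listed genes, 47.1% on the opposite strand, where MAP3K12 lies. MAP3K12 was at 2.25 to 4.70 TPM, and the overlapping genes on the same strand were at most at 1.86 TPM. How reads in shared bases were counted is not given in the sources used here.

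PCBP1, the intronless paralog of PCBP2, was at 255, 282 and 261 TPM in the WT libraries and 270.1, 227 and 228 TPM with K700E, with overlap (log2 difference -0.14, 95% interval -0.43 to 0.15). HNRNPK (ENSG00000165119, chromosome 9, 86582998 to 86595519, minus strand), a KH protein that also acts as a transcription factor, was at 531, 522 and 510.1 TPM in the WT libraries and at 671, 539.7 and 545 TPM with K700E. Its groups were separated by less than 10 TPM. The log2 difference of 0.16 (limma adjusted p 0.574) was close to that of the median gene.

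The G-run binding hnRNPs F and H did not differ beyond their spread. HNRNPF was at 351, 434 and 411 TPM in the WT libraries and at 448, 424 and 435 TPM with K700E. Its log2 difference of 0.13 (95% interval -0.15 to 0.42) was that of the median gene, and it was -0.01 with median-ratio scaling and -0.03 with GC correction. HNRNPH1, HNRNPH2 and HNRNPH3 had differences of -0.05, 0.18 and 0.03.

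**Figure D3:**
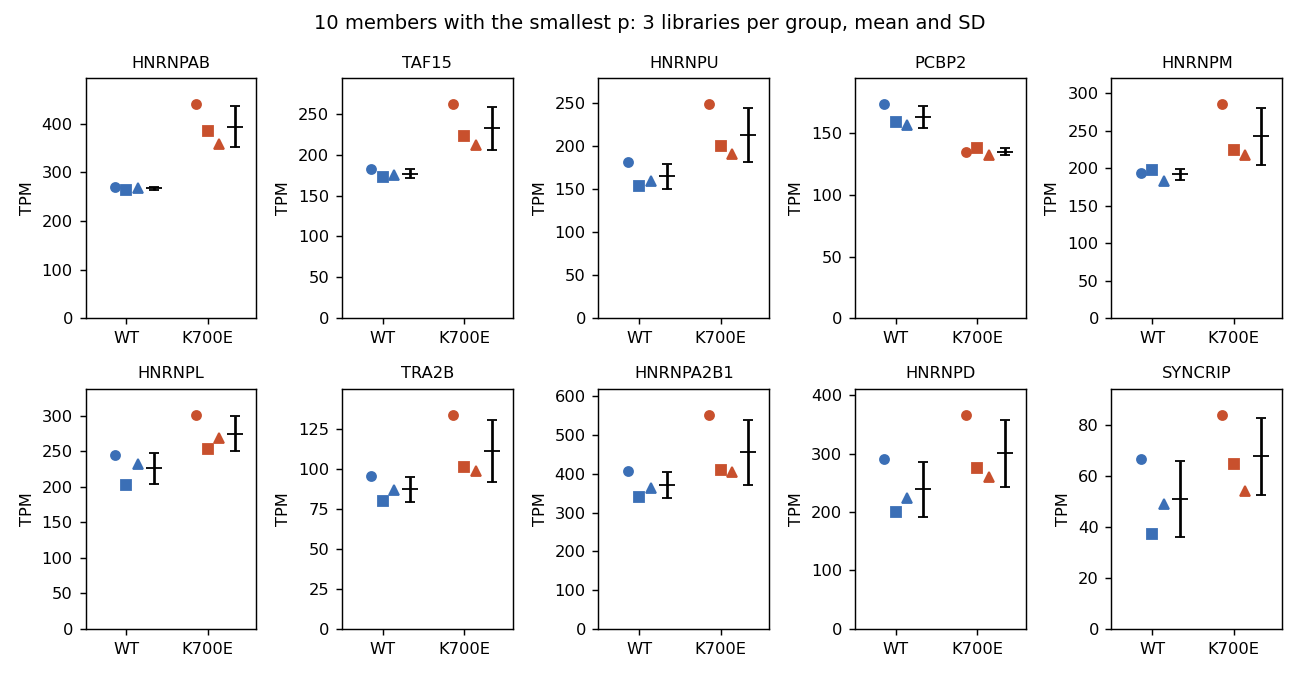
TPM in each library (WT blue, K700E red; circle, square and triangle for replicates 1, 2 and 3) of the 10 members with the smallest p, with their mean and SD of 3 libraries beside them. In 9 of the 10, PCBP2 excepted, K700E replicate 1 is the highest of the 6 libraries.

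TAF15 (ENSG00000270647, chromosome 17, 34136488 to 34174246, plus strand) had the second smallest p of all members. It is a FET protein, related to EWSR1, that links the transcription machinery to RNA. It stood at 183, 173 and 175 TPM in the WT libraries and at 262, 223 and 212 TPM with K700E, with no overlap. The group means were 177 ± 5.38 and 232 ± 26.4 TPM (SD, n = 3 each), and the log2 difference was 0.39 (SE 0.12, 95% interval 0.09 to 0.68). The limma adjusted p was 0.195, and 0.140 to 0.568 when 1 library was left out. EWSR1 was at 209, 235 and 226 TPM in the WT libraries and at 259, 223 and 242 TPM with K700E, with overlap (limma adjusted p 0.690).

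TRA2A and TRA2B, the transformer-2 proteins, activate exons with purine-rich enhancers and regulate their own level through a poison exon. TRA2B (ENSG00000136527, chromosome 3, 185632346 to 185655891, minus strand) was at 95.3, 79.8 and 86.4 TPM in the WT libraries and at 134, 101 and 98.8 TPM with K700E, without overlap (log2 difference 0.34, SE 0.16, limma adjusted p 0.347). TRA2A was at 70.1, 58.0 and 62.6 TPM in the WT libraries and at 92.1, 66.4 and 67.1 TPM with K700E, and its groups overlapped.

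MBNL and CELF proteins oppose each other in the splicing of muscle transcripts. MBNL1 and MBNL2 were at 78.7 ± 20.6 and 41.9 ± 11.1 TPM in the WT libraries and at 92.5 ± 10.3 and 51.2 ± 5.26 TPM with K700E (SD, n = 3 each), and CELF1 at 52.7 ± 7.78 and 61.2 ± 5.81 TPM. All 3 overlapped between the genotypes. MBNL3 was below the level tested. It had 31, 54 and 31 read ends in WT and 170, 44 and 758 in K700E, or 0.0603, 0.0789 and 0.0452 TPM and 0.321, 0.0728 and 1.21 TPM. K700E replicate 3 held most of these reads, and K700E replicate 2 lay inside the WT range. QKI, which binds ACUAA motifs, and RBFOX2 had log2 differences of 0.23 and 0.32, with overlap.

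ELAVL1 (HuR) stabilises messages with AU-rich elements and KHSRP promotes their decay. ELAVL1 was at 49.5 ± 2.62 and 51.5 ± 2.18 TPM, and KHSRP at 188 ± 29.9 and 216 ± 7.03 TPM. RBM5, RBM10 and RBM39 bind RNA near splice sites, and their log2 differences were -0.02, -0.002 and -0.05. RBM5 was tight across libraries, 42.7, 40.6 and 39.0 TPM in the WT libraries and 41.2, 40.2 and 39.2 TPM with K700E, whereas RBM10 ran from 30.5 to 53.5 TPM within WT alone.

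MATR3, which encodes the nuclear matrix protein matrin 3, could not be read from these values. Its 2 rows overlap each other. The first shares 94.1% of its exon bases with the second, which shares 87.9% with the first and SNHG4 (28.9 to 57.7 TPM). They were at 0.0332 to 0.0750 TPM and 0.508 to 0.705 TPM. Of the other 43 members 28 share no exon base with another listed gene and 8 share over 10%.

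The spread within WT moved with base composition. WT replicate 1 exceeded WT replicate 2 in 32 of the 42 members, by up to 0.85 log2 units in HNRNPLL, and lay below it in 10, by up to 0.83 in PTBP1. Across the 42 members the difference between these WT libraries had a Pearson r of -0.73 and a Spearman rho of -0.66 with the GC content of the transcript. Over 15129 genes with a value the coefficients were -0.70 and -0.71. These are descriptions across genes of the same libraries, and genes are not independent replicates. GC-rich PTBP1 (61.7%), RBM10 (60.3%) and KHSRP (59.2%) were lowest in WT replicate 1, and HNRNPLL (38.7%) and SYNCRIP (36.3%) were highest there. The difference between genotypes had a Pearson r of -0.07 with GC content in the members and -0.02 over all genes. In 32 of the 42 members (76.2%) the difference between genotypes was smaller than the range of the WT libraries, as it was for 73.3% of all genes.

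**Figure D4:**
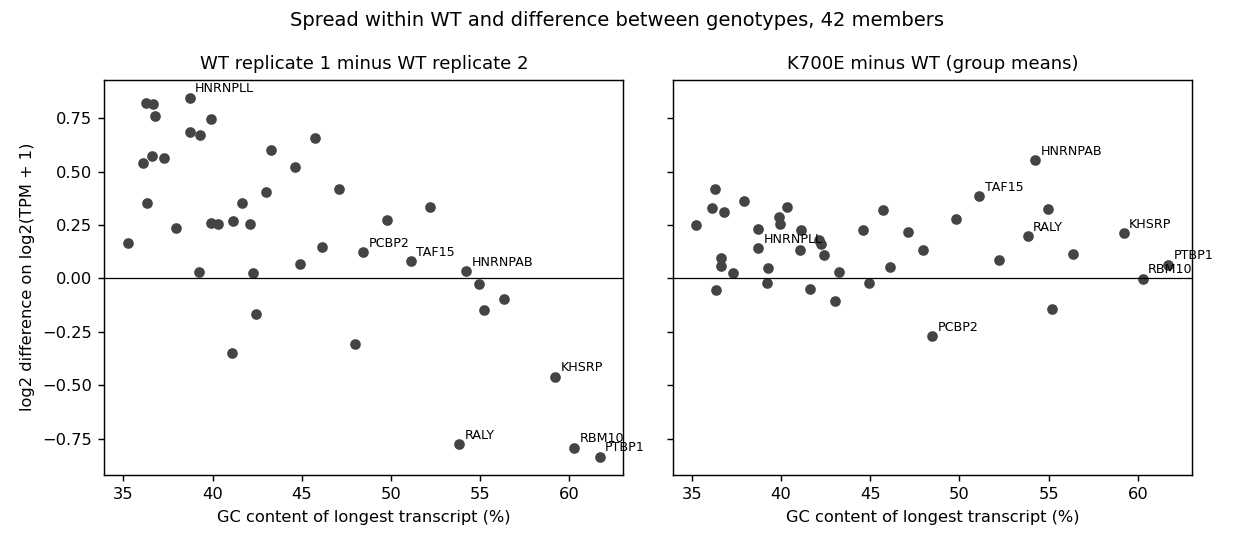
log2 difference against GC content of the longest transcript for the 42 tested members, between WT replicates 1 and 2 (left) and between the genotype means (right). The left panel slopes down from 0.85 to -0.83, while the right panel shows no slope and lies between -0.27 and 0.55.

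K700E replicate 1 stood apart among the members. It was the highest K700E library in 33 of the 42 members (78.6%), against 47.2% of all genes. The log2 difference between K700E replicates 1 and 3 had a Pearson r of -0.57 with GC content across the 42 members. Over 15129 genes the coefficient was -0.38. In all 7 members whose K700E libraries lay above WT, K700E replicate 1 was the highest of the 6 libraries. For such genes that is the same as being the highest K700E library, and the share over all such genes is not given here. Without K700E replicate 1 the log2 difference was 0.47 in HNRNPAB (limma adjusted p 0.176), against 0.55 with all libraries. It was 0.30 in TAF15, 0.25 in HNRNPU, 0.20 in HNRNPM, 0.21 in HNRNPL, 0.20 in TRA2B and 0.06 in HNRNPK. All 7 kept a positive difference of smaller size with TPM as deposited. That outcome was fixed by how they were picked, since K700E replicate 1 was the highest in each. PCBP2, at -0.27, was the same without it.

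Ratios between related genes were compared within each library, as differences on log2(TPM + 1). Of 21 pairs compared, 4 had ratios that did not overlap between the genotypes, and each had an exact two-sided permutation p of 0.1, the smallest that 3 against 3 libraries allow (adjusted p over the pairs 0.525). HNRNPA2B1 relative to HNRNPA1 was 0.190, 0.210 and 0.198 in WT and 0.320, 0.238 and 0.236 in K700E. HNRNPH2 relative to HNRNPH1 was 0.280, 0.299 and 0.279 in WT and 0.315, 0.368 and 0.330 in K700E. HNRNPUL2 relative to HNRNPU was lower in K700E, at 0.125, 0.146 and 0.145 against 0.168, 0.156 and 0.177.

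TRA2A relative to TRA2B was the tightest of the pairs within WT. It was 0.735, 0.726 and 0.724 in WT and 0.689, 0.659 and 0.679 in K700E, a log2 difference of -0.11 with an SD of 0.01 in WT and 0.03 in K700E. MBNL2 relative to MBNL1 was almost as steady, from 0.520 to 0.547 in WT and from 0.548 to 0.560 in K700E. These plain ratios did not overlap, but on the log2(TPM + 1) scale they did, so that 5 of the 21 pairs did not overlap as plain ratios. PTBP3 relative to PTBP1 was the loosest, at 0.758, 0.239 and 0.366 in WT and 0.381, 0.531 and 0.350 in K700E. Without WT replicate 1, 9 of the 21 pairs did not overlap, but fewer libraries separate more readily whatever their genotype. Several pairs share a gene, and no share over other gene pairs was computed. These counts are therefore no result about the pairs.

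**Figure D5:**
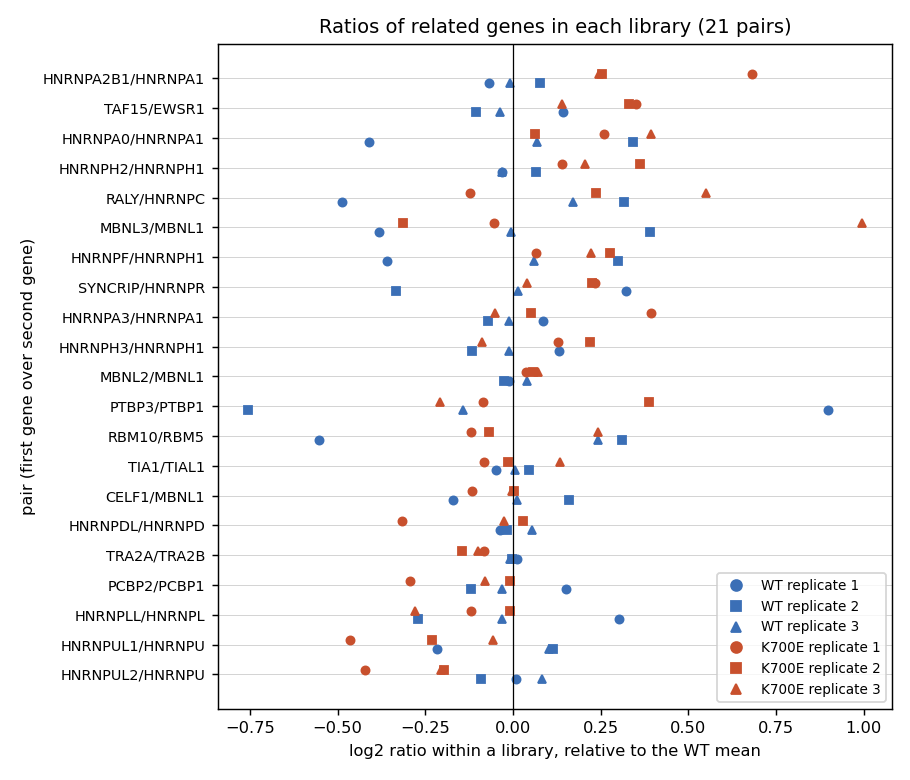
Log2 ratio of related genes within each library, from log2(TPM + 1), shown relative to the WT mean of the pair (WT blue, K700E red). TRA2A/TRA2B and MBNL2/MBNL1 form tight clusters, while the WT libraries of PTBP3/PTBP1 span more than a log2 unit.

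Other splicing regulators outside the members were described in the same way. Of 59 listed 45 were tested, and none passed at a limma adjusted p under 0.05, with 3 higher (6.67%) and 4 lower (8.89%) at an unadjusted p under 0.05, against 13% and 3.52% of all genes. Their median log2 difference was 0.08, against 0.13 for all genes. RBM28, a nucleolar RNA-binding protein, was at 13.2 ± 0.320 and 20.0 ± 1.29 TPM (SD, n = 3 each; limma adjusted p 0.102). SRRM1, a coactivator that joins SR proteins to the spliceosome, stood lower in K700E, at 136 ± 12.7 against 183 ± 16.9 TPM (limma adjusted p 0.179). Of the 12 SR proteins 11 were tested and none passed, with 2 higher (18.2%) at an unadjusted p under 0.05. SRSF9 was at 81.9 ± 4.58 and 103 ± 3.86 TPM (limma adjusted p 0.222) and SRSF7 at 126 ± 6.92 and 160.2 ± 19.9 TPM (0.266).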

How the data were processed

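RNA from K562 cells was extracted on magnetic beads and made into mRNA libraries, per the labels' protocols. The authors deposited TPM per gene, in a table for each genotype. Per the submitters' processing notes, reads were trimmed (cutadapt 2.10), aligned (TopHat2 2.1, GRCh37) and counted (featureCounts 2.0.1), and DESeq2 was used, while the WT column names, per the file headers, end as STAR names its files. The aligner is therefore not settled, and the sources used here do not give strand or counting settings. The deposited gene length in bases is another column of the WT table.

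TPM multiplied by gene length gave whole multiples of a step per library for 100% of genes above 0 (tolerance 0.01), so each library was scaled alone, with the same lengths. Read ends were recovered from these steps. Genes whose mean reached 1 TPM entered a limma 3.58.1 fit (R 4.3.3) on log2(TPM + 1), with a trend on mean level, two-sided, and Benjamini-Hochberg adjustment over all 15493 genes. In simulated libraries of this comparison (15491 genes tested) a median of 43% of 2-fold and 78% of 4-fold changes were recovered, with 8 false calls. The changed genes were drawn at random from all but the lowest levels, with independent noise per gene. These rates are therefore not specific to the members. Pairs were compared by exact permutation. GC content came from the longest GENCODE 29 transcript, joined by gene ID, for 97.7% of tested genes. The text names in full the 10 members of smallest p, the 6 most abundant, the extremes, and 2 members of each other list; MBNL3, MATR3 and further members were described after their values were seen. Members and lists were chosen with earlier results of these data known. Alternatives were other pseudocounts, filters, scalings, limma without the trend, limma-voom (mean of at least 10 read ends), a replicate block, leaving out each library and, added after the data were seen, a loess correction on GC content.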

Additional observations from a re-analysis of the deposited data

How the results depend on the processing

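PCBP2, called lower with GC correction, was the only member called under any alternative tried, and that correction was added after the data were seen. The count over all genes was 214, and 0 with no filter on low values (4891 at an unadjusted p under 0.05), 92 with a filter at 5 TPM, 381 with limma-voom on recovered reads and 482 with GC correction. Leaving out 1 library gave 0 genes without WT replicate 3 (1492 unadjusted) to 170 without WT replicate 1. It gave 126 without WT replicate 2, and 93, 86 and 137 without K700E replicates 1, 2 and 3. The deviations of same-numbered libraries from the group means correlated at 0.28, -0.19 and 0.30 for replicates 1, 2 and 3. WT replicates 1 and 3 correlated best with the K700E library of the same number. WT replicate 2 correlated best with K700E replicate 3 (0.43). Deviations of 3 libraries from their own mean are not independent, so these values cannot tell whether same-numbered libraries share more than a number. With the replicate block 67 genes and 0 members were called, and the exact sign-flip p of the pairs could not go below 0.25. Leaving out 1 library gave 4 to 9 pairs without overlap, against 4 with all, though fewer libraries separate more readily. HNRNPF, at 0.13, reversed to -0.0099 with median-ratio scaling and -0.0255 with GC correction. HNRNPC, at -0.02, reversed without K700E replicate 3, where leaving out 1 library gave -0.1314 to 0.0695. The cause was not tested. The other 220 of 224 values of the 14 named members under these alternatives kept their direction and their side of the threshold, PCBP2 with GC correction being the remaining exception. Fits that leave a group with 2 libraries pool the spread over both groups. Depth did not limit the tested members, but the few reads of MBNL3 limit what can be said of it. MATR3 also had few reads, but its rows share most of their exon bases, and the cause was not tested.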
